A study of Mus musculus with 12 samples.

Results

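The BCL2 family decides whether a cell opens the outer membrane of its mitochondria and dies. This account follows 10 of its genes in mouse B lymphoma cells that had kept or lost their B-cell receptor (BCR). They are Bmf, Bcl2l11, Bbc3, Pmaip1 and Bik, which encode BH3-only death proteins, Bid, a further BH3-only gene, the survival genes Mcl1, Bcl2 and Bcl2l1, and the pore-forming gene Bak1. They were taken by their symbol in the array's platform annotation, and all 10 were measured, out of 18820 genes.

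The cells came from primary cultures of B lymphomas of l-MYC;B1-8f mice of strain C57BL/6J x BALB/c, whose age and sex are not given in the labels. B1-8f is a heavy chain variable region that Cre recombinase can delete, and every culture, that of the BCR-positive cells included, had received TAT-Cre, a Cre protein that enters cells. BCR-negative and BCR-positive cells of a lymphoma thus shared 1 dish for 4 days before they were sorted apart. The groups were BCR-negative cells with CHIR99021, an inhibitor of the kinase GSK3, BCR-positive cells with CHIR99021, untreated BCR-negative cells and untreated BCR-positive cells. Lymphomas 2564, 2646 and 2676 each gave 1 Affymetrix Mouse Gene 1.1 ST array to each of these 4 groups, 12 arrays in all. The dose of CHIR99021 is not given in the labels, and the controls are named only as untreated.

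BH3-only proteins are the sensors of the family. They bind the groove of survival proteins such as MCL1, BCL2 and BCL-XL, and once these are occupied, BAK and BAX form pores, cytochrome c leaves the mitochondria and caspases are activated. In mouse B cells BIM, the product of Bcl2l11, is known for removing self-reactive cells, and its loss speeds MYC-driven lymphoma. MCL1 protein is short-lived and is marked for breakdown after GSK3 phosphorylates it, which an array of RNA cannot show.

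Levels below are log2 signals as deposited, and differences are mean log2 differences within lymphomas with their standard error (SE) from limma, n = 3 lymphomas. This SE pools the residual spread of all 4 groups, so a gene has the same SE in every comparison of 2 groups. A gene was called higher or lower where the Benjamini-Hochberg adjusted p over all genes was under 0.05. The variable segment from which the deleted heavy chain region is built checked the sort, and its signal in BCR-negative cells was 7.92% to 38.2% of that in BCR-positive cells of the same lymphoma and culture. Of 8 B-cell markers measured, 7 lay above the median gene, while none of 6 T-cell, 4 granulocyte, 4 NK-cell and 2 erythroid markers did. Of 5 stroma and endothelium markers 4 did, and none of them was called in any comparison. All 10 members lay above the level taken as dim, the 30th percentile of gene means.

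**Figure D1:**
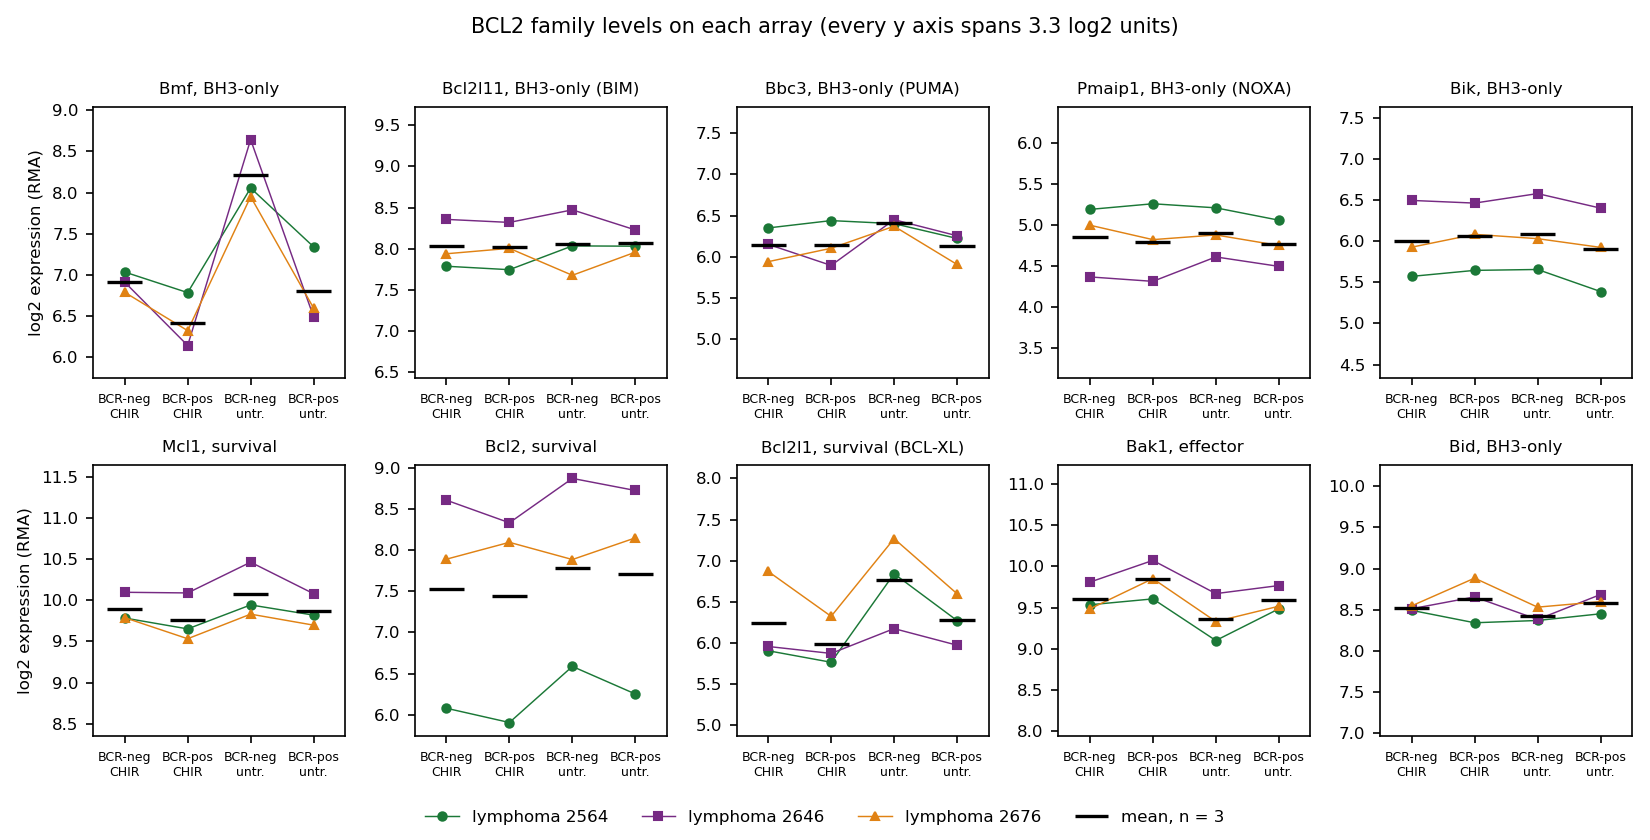
Log2 signal of the 10 genes on each array, one panel per gene, with BCR-negative cells with CHIR99021, BCR-positive cells with CHIR99021, untreated BCR-negative cells and untreated BCR-positive cells from left to right. Points joined by a line are the arrays of 1 lymphoma; every y axis spans the same number of log2 units. Bmf peaks in untreated BCR-negative cells in all 3 lymphomas, and Bcl2 is set apart by lymphoma.

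Bmf was the only member called in any comparison. A member that was not called is not thereby shown to be unchanged. It encodes BMF, a BH3-only protein that is held at the actin motor complex through a dynein light chain. Untreated BCR-negative cells of lymphomas 2564, 2646 and 2676 had log2 levels of 8.06, 8.64 and 7.95, and untreated BCR-positive cells had 7.34, 6.49 and 6.60. All 3 BCR-negative arrays lay above all 3 BCR-positive arrays, and the gap was widest in 2646. Groups without overlap were not counted over all genes, so here and below this only describes the levels. Bmf was higher in BCR-negative cells by 0.71, 2.15 and 1.35 in the 3 lymphomas, or 1.64-fold, 4.44-fold and 2.55-fold. The mean rise was 1.41 ± 0.215, a 2.65-fold difference (limma, adjusted p = 0.0170). Its p ranked 86 among the 18820 genes. Of all genes 4.20% were called in this comparison, 1.91% as higher and 2.30% as lower, and Bmf was the 1 called member of 10. In these sorted bulk samples fewer cells with a transcript and less RNA of it per cell cannot be told apart.

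The call depended on which arrays were in the fit. It held without lymphoma 2564. Without lymphoma 2646 the Bmf difference was 1.03 (limma, adjusted p = 0.136), and without 2676 it was 1.43 (limma, adjusted p = 0.136). These fits called 0 and 22 of all 18820 genes, against 791 in the fit of all arrays. The Bmf call was also lost without the untreated BCR-positive array of 2646 (1.22, limma adjusted p = 0.0900) or of 2676 (1.38, limma adjusted p = 0.0799). Those fits called 47 and 45 of all genes. Without lymphoma as a block the difference was the same and the limma adjusted p was 0.251. The plasma cell regulator Prdm1 moved with Bmf here and was higher in untreated BCR-negative than BCR-positive cells by 1.62 ± 0.293 (limma, adjusted p = 0.0248). It was the 1 called member of 5 plasma cell markers, of which 3 lay above the median gene. Their mean log2 level was 7.08 to 7.80 in untreated BCR-negative cells and 6.93 to 7.22 in untreated BCR-positive cells, and their part in the result was not tested.

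CHIR99021 was set against no treatment within the BCR-negative cells next. Bmf had log2 levels of 7.04, 6.91 and 6.79 in CHIR99021-treated BCR-negative cells of 2564, 2646 and 2676, against the 8.06, 8.64 and 7.95 of untreated BCR-negative cells. All 3 treated arrays lay below all 3 untreated ones. Bmf fell by 1.30 ± 0.215 on the log2 scale, a 2.47-fold difference (limma, adjusted p = 0.0164), with -1.02, -1.73 and -1.16 in single lymphomas. Of all genes 3.68% were called, 1.91% as higher and 1.76% as lower, and Bmf was again the 1 called member of 10. This comparison and BCR loss in untreated cultures share the 3 untreated BCR-negative arrays, so their opposite signs are not independent.

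The Bmf call with CHIR99021 was also lost when single lymphomas or arrays were left out. The difference was -1.09 without lymphoma 2646 (limma, adjusted p = 0.121) and -1.38 without 2676 (limma, adjusted p = 0.0944). These fits called 0 and 175 of all 18820 genes, against 692 in the fit of all arrays. Without the CHIR99021-treated BCR-negative array of 2564 the Bmf difference was -1.24 (limma, adjusted p = 0.105), and without that of 2646 it was -1.33 (limma, adjusted p = 0.0718). Those fits called 57 and 51 of all genes. Without the lymphoma block the limma adjusted p was 0.242. The macrophage marker Lyz2 was higher with CHIR99021 in the same cells by 0.46 ± 0.100 (limma, adjusted p = 0.0388). It was the 1 called gene of 6 macrophage and monocyte markers, of which 3 lay above the median gene; their mean level was 4.66 to 5.32 in treated and 4.62 to 5.37 in untreated BCR-negative cells. The receptor subunit Cd79b, 1 of 8 B-cell markers, was lower by 0.33 ± 0.0604 (limma, adjusted p = 0.0240). The mean of the 8 was 8.28 to 8.93 in treated and 8.90 to 9.11 in untreated BCR-negative cells. In BCR-positive cells this mean was 8.23 to 8.92 with CHIR99021 and 8.77 to 9.20 untreated. The part of these markers in the result was not tested.

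Bmf did not pass the test in the remaining comparisons. With CHIR99021 in both arms, BCR-negative cells (7.04, 6.91 and 6.79) lay above BCR-positive cells (6.79, 6.14 and 6.32), but the lowest BCR-negative array and the highest BCR-positive array were nearly level. The difference was 0.49 ± 0.215 (limma, adjusted p = 0.567), with none of the 10 members called and 0.0159% of all genes (0.0106% as higher and 0.00531% as lower). In BCR-positive cells CHIR99021 gave a Bmf difference of -0.39 ± 0.215 (limma, adjusted p = 0.611), negative in all 3 lymphomas. There 0.0744% of all genes were called, 0.00531% as higher and 0.0691% as lower, again with no member. The arrays of these 2 groups overlapped, at 6.14 to 6.79 with CHIR99021 and 6.49 to 7.34 untreated.

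The interaction asks whether BCR loss had another effect under CHIR99021 than without it. For Bmf it was -0.91 ± 0.305, and it was negative in every lymphoma (-0.46, -1.38 and -0.89), but it did not pass over all genes (limma, adjusted p = 0.928). No gene was called for the interaction (0% of all genes), while 990 genes had an unadjusted limma p under 0.05. Treated BCR-negative cells differed from untreated BCR-positive cells by 0.10 ± 0.215 in Bmf (limma, adjusted p = 0.956), with a 95% interval of -0.38 to 0.58. In that comparison no member was called and 0.0159% of all genes were, all of them as lower. The interval spans differences in either direction.

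The 4 group means of Bmf ran from 8.22 ± 0.37 in untreated BCR-negative cells over 6.91 ± 0.12 in treated BCR-negative and 6.81 ± 0.46 in untreated BCR-positive cells to 6.42 ± 0.33 in treated BCR-positive cells (SD, n = 3 each). The first step in this order was the one called. The next pair, treated BCR-negative against untreated BCR-positive cells, and the last pair, untreated and treated BCR-positive cells, were not called and overlapped. Group accounted for 85.2% of the sum of squares of Bmf and lymphoma for 4.86%, where the median gene had 21.3% for group and 36.8% for lymphoma.

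**Figure D2:**
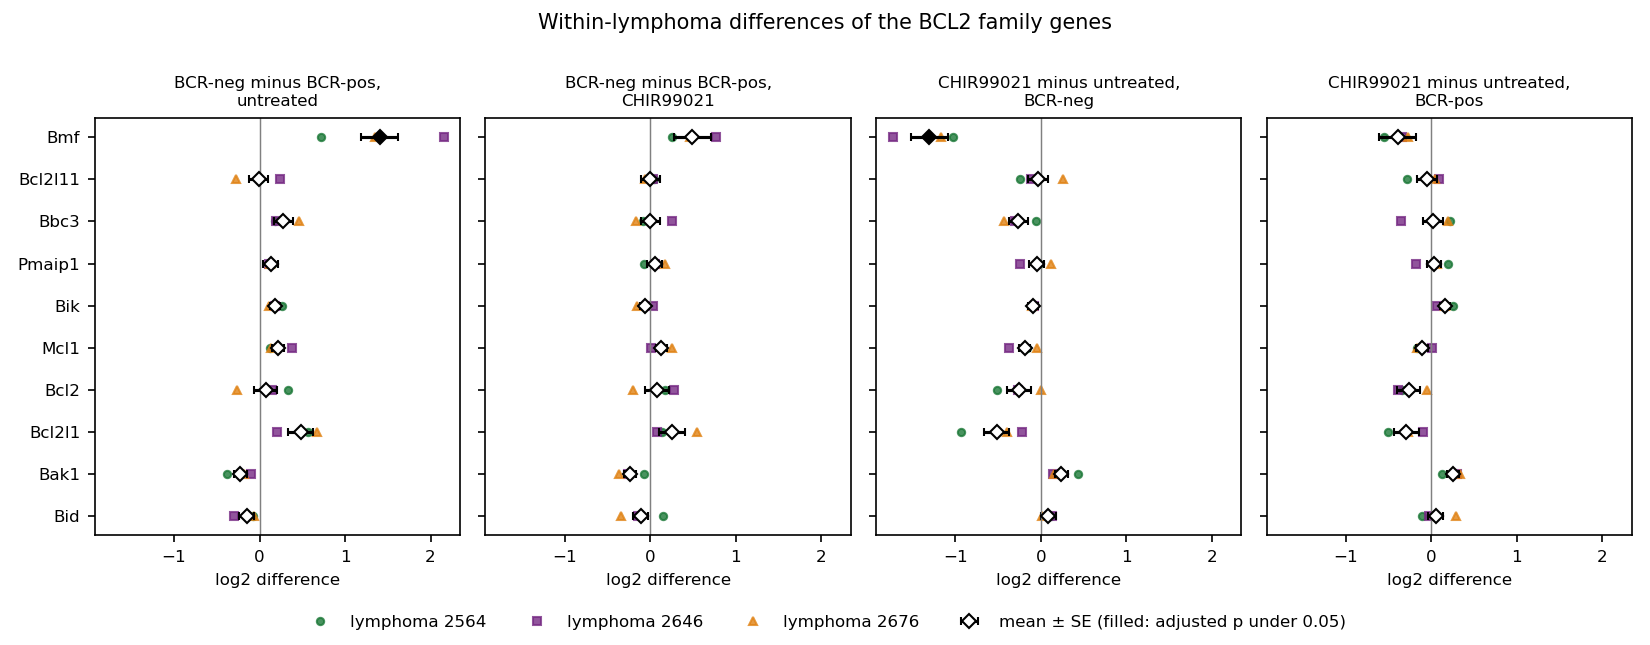
Log2 differences of the 10 genes in BCR loss and CHIR99021 comparisons, one panel per comparison. Small points are single lymphomas, the larger symbol is the limma mean with its standard error, filled where the gene was called. Bmf is filled in BCR loss without treatment and in CHIR99021 treatment of BCR-negative cells, and no other symbol is filled.

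Bcl2l11 encodes BIM, a BH3-only protein that binds the survival proteins broadly. Its levels were 7.79, 8.36 and 7.94 in treated BCR-negative cells of 2564, 2646 and 2676 and 7.75, 8.32 and 8.01 in treated BCR-positive cells. They were 8.03, 8.47 and 7.68 in untreated BCR-negative cells and 8.03, 8.23 and 7.96 in untreated BCR-positive cells. The groups overlapped in every comparison, and lymphoma 2646 was the highest in each group. The difference with BCR loss was -0.01 ± 0.114 in untreated cultures, with a 95% interval of -0.27 to 0.25 (limma, adjusted p = 0.978). It was -0.03 ± 0.114 with CHIR99021 in BCR-negative cells (limma, adjusted p = 0.931). The sign of both depended on the arrays and the scaling used. Lymphoma took 76.1% of the sum of squares of Bcl2l11 and group 0.770%.

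Bbc3 encodes PUMA, a BH3-only protein best known as a target of p53. Its levels were 6.40, 6.45 and 6.37 in untreated BCR-negative cells of 2564, 2646 and 2676 and 6.22, 6.26 and 5.91 in untreated BCR-positive cells. The arrays of the 2 groups did not overlap, and the difference of 0.28 ± 0.114 did not pass (limma, adjusted p = 0.199). With CHIR99021 the BCR-negative levels were 6.35, 6.15 and 5.94, all below the untreated BCR-negative arrays. That difference was -0.26 ± 0.114 (limma, adjusted p = 0.251). Bbc3 was near 0 for BCR loss under CHIR99021 (0.00 ± 0.114) and for CHIR99021 in BCR-positive cells (0.02 ± 0.114), with mixed signs among lymphomas in both.

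A start of each of these 3 genes is shown because FOXO factors are known to act on Bcl2l11 and Bbc3. A FOXO motif was searched in all windows of the members. Each window runs from 250 bases before to 50 bases after a RefSeq transcript start in GRCm38.p6, 5′ to 3′ on the gene's strand. Capitals mark GTAAACA, a FOXO motif, or its reverse complement. The windows are chr2:118549637-118549936 on the minus strand for Bmf, chr2:128125788-128126087 on the plus strand for Bcl2l11 and chr7:16310011-16310310 on the plus strand for Bbc3.
Bmf: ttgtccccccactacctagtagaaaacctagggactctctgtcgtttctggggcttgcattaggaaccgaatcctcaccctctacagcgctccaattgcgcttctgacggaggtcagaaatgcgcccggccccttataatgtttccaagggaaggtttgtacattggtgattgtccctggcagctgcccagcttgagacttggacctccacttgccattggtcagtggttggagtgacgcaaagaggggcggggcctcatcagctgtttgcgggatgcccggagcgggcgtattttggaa
Bcl2l11: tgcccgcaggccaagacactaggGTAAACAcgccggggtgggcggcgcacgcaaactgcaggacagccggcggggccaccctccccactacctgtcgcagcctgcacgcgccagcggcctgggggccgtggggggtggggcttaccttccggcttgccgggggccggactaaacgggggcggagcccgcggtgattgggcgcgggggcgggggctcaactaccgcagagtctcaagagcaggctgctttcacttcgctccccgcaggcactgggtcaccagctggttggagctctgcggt
Bbc3: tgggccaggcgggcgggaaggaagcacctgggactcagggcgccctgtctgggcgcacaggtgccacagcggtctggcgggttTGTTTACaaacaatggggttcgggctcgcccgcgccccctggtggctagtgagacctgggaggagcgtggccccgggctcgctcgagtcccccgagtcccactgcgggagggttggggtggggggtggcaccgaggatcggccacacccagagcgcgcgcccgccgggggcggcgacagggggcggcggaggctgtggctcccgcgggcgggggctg
In the printed windows the motif began 227 bases before the start in Bcl2l11 and 167 bases before it in Bbc3, where it stood as TGTTTAC. Bcl2l11 and Bbc3 have further windows, which lack it, and the window printed for each is the one with the match. For Bmf the first window along its strand is printed. The motif was in these 2 printed windows alone among those of the members. It was in none of the 3 windows of Bmf, and 3.65% of 32851 windows of all genes hold it on either strand. Of the 10 members, 8 had a window, 15 windows in all, and no other held this motif. The MYC E-box CACGTG, in 7.15% of all windows, was in 1 further window of Bbc3, and the AP-1 motif TGANTCA, in 7.81%, was in none. A match in letters is not a bound site, and the lack of one says nothing of sequence outside these windows.

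The other BH3-only genes differed little between groups. Pmaip1, which encodes NOXA, a BH3-only protein that favours MCL1, had levels of 4.32 to 5.26 over the 12 arrays. Its difference with BCR loss in untreated cultures was 0.13 ± 0.0850 (limma, adjusted p = 0.456), positive in all 3 lymphomas, and with CHIR99021 in BCR-negative cells it was -0.05 ± 0.0850. Lymphoma made up 90.9% of its sum of squares, with the mean of 2564 at 1.66-fold that of 2646.

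Bik, whose product sits largely at the endoplasmic reticulum, had levels of 5.66, 6.58 and 6.03 in untreated BCR-negative cells of 2564, 2646 and 2676 and 5.39, 6.40 and 5.92 in untreated BCR-positive cells. The ranges overlapped because lymphomas differed, but BCR-negative cells were higher within each. The difference was 0.18 ± 0.0574 (limma, adjusted p = 0.102). Under CHIR99021 BCR loss gave -0.07 ± 0.0574 for Bik, and the interaction of -0.25 ± 0.0812, negative in all 3 lymphomas, did not pass (limma, adjusted p = 0.928). Bid, whose product is cut by caspase-8 and links death receptors to mitochondria, gave -0.15 ± 0.0895 with BCR loss in untreated cultures (limma, adjusted p = 0.406) and 0.09 ± 0.0895 with CHIR99021 in BCR-negative cells. Its levels lay between 8.34 and 8.88 on all arrays, with overlap in every comparison.

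Among the survival genes, Bcl2l1 had the widest differences. It encodes BCL-XL, the survival protein prominent in developing and activated B cells. Its levels in 2564, 2646 and 2676 were 6.84, 6.18 and 7.27 in untreated BCR-negative cells and 6.27, 5.97 and 6.60 in untreated BCR-positive cells. BCR-negative cells were higher within each lymphoma while the ranges overlapped. The difference was 0.48 ± 0.148 and did not pass (limma, adjusted p = 0.0972). With CHIR99021 the BCR-negative levels were 5.91, 5.96 and 6.87, lower than the untreated ones within every lymphoma and most so in 2564 (-0.93). That difference was -0.52 ± 0.148 and did not pass either (limma, adjusted p = 0.0857). Bcl2l1 passed in none of the 23 alternative settings of either comparison.

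Mcl1, the survival gene that B lymphoma cells commonly lean on, had levels of 9.94, 10.46 and 9.83 in untreated BCR-negative cells and 9.82, 10.08 and 9.70 in untreated BCR-positive cells. The order was the same within each lymphoma, and the ranges overlapped. The difference was 0.21 ± 0.0682 (limma, adjusted p = 0.108), or 0.12, 0.38 and 0.13 by lymphoma. With CHIR99021 the BCR-negative levels were 9.78, 10.10 and 9.79, a difference of -0.19 ± 0.0682 (limma, adjusted p = 0.162). CHIR99021 in BCR-positive cells gave -0.11 ± 0.0682 for Mcl1 (limma, adjusted p = 0.676).

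Bcl2, the founding survival gene of the family, differed more between lymphomas than between groups. Its mean level over the 4 groups was 6.21 in 2564, 8.63 in 2646 and 8.00 in 2676, and the gap of 2.43 between the first and the second amounts to 5.38-fold. Every array of 2564 (5.91 to 6.59) lay below every array of the other lymphomas. Lymphoma accounted for 96.5% of the sum of squares of Bcl2 and group for 1.68%. The difference with BCR loss was 0.07 ± 0.137 (limma, adjusted p = 0.851), and with CHIR99021 it was -0.26 ± 0.137 in BCR-negative and -0.26 ± 0.137 in BCR-positive cells (limma, adjusted p = 0.370 and 0.580). A second Bcl2 probe set, at a mean of 4.15 against 7.61 and near the dim level of 4.12, gave -0.02 and 0.04 for these CHIR99021 comparisons.

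Bak1 encodes BAK, the effector that forms pores in the outer membrane. Untreated BCR-negative cells of 2564, 2646 and 2676 had levels of 9.10, 9.67 and 9.33, and untreated BCR-positive cells had 9.48, 9.77 and 9.52. BCR-negative cells were lower within every lymphoma, though the ranges overlapped. The difference was -0.22 ± 0.0710 (limma, adjusted p = 0.107). With CHIR99021 Bak1 had levels of 9.53, 9.81 and 9.48 in BCR-negative cells and 9.61, 10.07 and 9.85 in BCR-positive cells, each higher than the untreated cells of the same kind and lymphoma. These differences were 0.24 ± 0.0710 and 0.25 ± 0.0710 (limma, adjusted p = 0.0906 and 0.232). BCR loss under CHIR99021 gave -0.23 ± 0.0710 (limma, adjusted p = 0.481). A second Bak1 probe set, at a mean of 4.26 against 9.60 and also close to the dim level of 4.12, gave 0.05 for BCR loss and 0.00 for CHIR99021 in BCR-negative cells. Flat values so near that level do not bear on the brighter probe set.

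**Figure D3:**
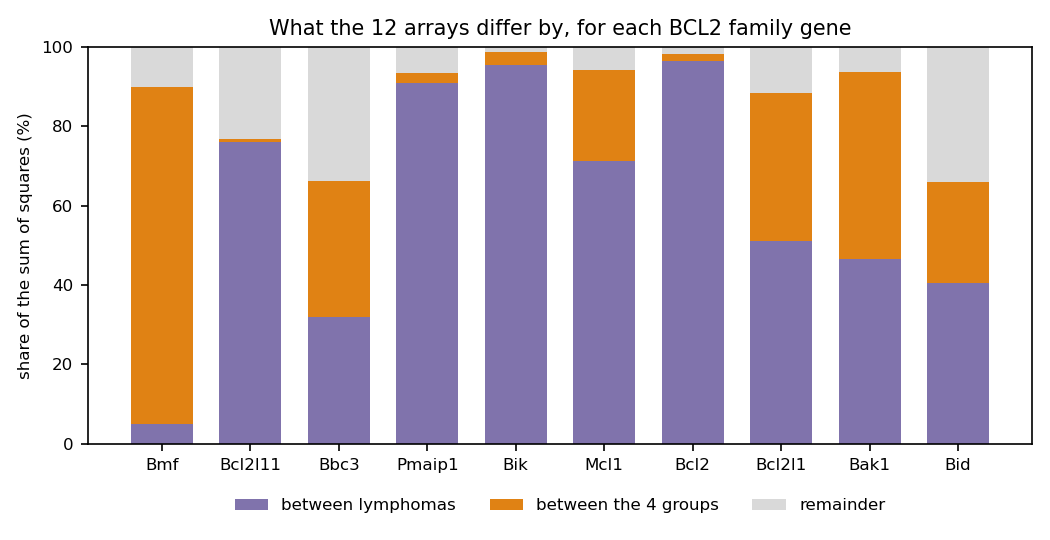
Share of each gene's sum of squares over the 12 arrays, in percent, that lay between lymphomas, between the 4 groups and in the remainder, one bar per gene. Bmf has the largest group share of the 10 at 85.2%, and Bcl2 and Bik have lymphoma shares of 96.5% and 95.4%.

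The 10 genes as a group are set beside all genes tested, as a description and with no test. They mix death and survival genes. They were also chosen with earlier results of these data known, so a shift from all genes can be partly built in. The first 2 comparisons below share the 3 untreated BCR-negative arrays, so their opposite signs are not independent. With BCR loss in untreated cultures their median difference was 0.16, against -0.00 for all genes, and 6 members were positive and 2 negative in all 3 lymphomas. Of all genes 18.0% were positive and 21.8% negative in all 3. With CHIR99021 in BCR-negative cells the median was -0.14, against 0.01 for all genes, with 2 members positive and 5 negative in all 3 lymphomas, where 21.2% and 16.0% of all genes were. The other comparisons had member medians of 0.03 for BCR loss under CHIR99021 and -0.02 for CHIR99021 in BCR-positive cells.

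After each lymphoma's mean was taken out, Bmf correlated over the 12 arrays with Mcl1 at r = 0.914, with Bcl2l1 at 0.738, with Bbc3 at 0.711, with Bcl2l11 at 0.188 and with Bak1 at -0.772. Bmf had r = 0.518 with Bcl2, 0.491 with Pmaip1, 0.352 with Bik and -0.698 with Bid. Bcl2l1 and Bak1 had r = -0.893, the lowest of all pairs of members. These values describe 12 arrays that share 3 lymphomas, 4 groups and the scaling of each array. By the same measure the 3 genes of 18819 most like Bmf were Ets2 (r = 0.992), Tcf7l2 (0.991) and Pinlyp (0.982).

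Around the members, 76 further genes of the death machinery were read in 7 lists, and 60 of them were among the genes tested. Bax, Bad and Trp53 are among the 16 not analysed here. With BCR loss in untreated cultures 3 of the 60 rose and none fell, beside the 4.20% of all genes called. They were Birc3, 1 of 6 inhibitors of apoptosis (0.48 ± 0.104), Tnfsf10, the death ligand TRAIL and 1 of 8 genes of the death receptor branch (1.50 ± 0.342), and the AP-1 gene Jun, 1 of 10 transcription factors (0.96 ± 0.216), with limma adjusted p of 0.0389, 0.0441 and 0.0427. In lymphoma 2564 Tnfsf10 lay near the dim level of 4.12, at 4.22 in untreated BCR-negative and 3.66 in untreated BCR-positive cells. These levels were 7.71 and 5.18 in 2646 and 7.53 and 6.13 in 2676. Foxo1, a factor that acts on Bcl2l11, had 0.51 and did not pass (limma, adjusted p = 0.0581).

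With CHIR99021 in BCR-negative cells 2 of the 60 rose and 2 fell, beside the 3.68% of all genes called. Dynll2, the dynein light chain that BMF binds, rose by 0.31 ± 0.0717 (limma, adjusted p = 0.0478), and Aifm1, a mitochondrial flavoprotein released in cell death, rose by 0.35 ± 0.0795 (adjusted p = 0.0443). Casp2, an initiator caspase, fell by 0.47 ± 0.0746 (limma, adjusted p = 0.0150), and Casp9, the caspase of the apoptosome, fell by 0.25 ± 0.0583 (adjusted p = 0.0495). In BCR-positive cells CHIR99021 gave -0.45 ± 0.0746 for Casp2, negative in all 3 lymphomas, which did not pass (limma, adjusted p = 0.0741), and its interaction was -0.01 ± 0.106. Aifm1, Casp2 and Casp9 were 3 of 9 apoptosome and caspase genes, and Dynll2 was 1 of 8 genes that handle BIM, BMF and MCL1. In the 13 other BCL2 family genes and the 6 outer membrane partners no gene was called in any of the 6 comparisons. No list gene was called in the remaining 4 comparisons.

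These calls depended on the block, the scaling, the eBayes variant and single arrays. With cyclic loess scaling Tnfsf10, Dynll2, Aifm1 and Casp9 did not pass (limma, adjusted p of 0.0508 to 0.0703). With trend and robust eBayes Jun, Tnfsf10 and Casp9 did not pass (limma, adjusted p of 0.0688 to 0.125). Casp9 was also lost with array medians subtracted (limma, adjusted p = 0.128) and with dim genes left out (0.0504). Birc3 and Casp2 kept their calls in these settings. With lymphoma as a random block none of the 7 passed, with limma adjusted p of 0.127 for Birc3, 0.346 for Tnfsf10, 0.105 for Jun, 0.164 for Dynll2, 0.470 for Aifm1, 0.0543 for Casp2 and 0.134 for Casp9. None passed without the block (adjusted p of 0.548 to 0.9996) or with only the arrays compared (0.0525 to 0.151). Over 15 fits that each left out 1 lymphoma or 1 array, Casp2 was called in 9 (-0.52 to -0.37), Birc3 in 6 (0.36 to 0.64), Tnfsf10 in 5 (0.98 to 1.96) and Jun in 4 (0.73 to 1.11). Dynll2 was called in 2 (0.26 to 0.35), Aifm1 in 1 (0.27 to 0.46) and Casp9 in 0 (-0.30 to -0.21). Without lymphoma 2646, and without 2676, none of the 7 passed, and Birc3 and Tnfsf10 did pass without 2564. The calls over all genes fell in these fits too. For BCR loss in untreated cultures they were 0 without 2646 and 22 without 2676. For CHIR99021 in BCR-negative cells they were 0 and 175.

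**Figure D4:**
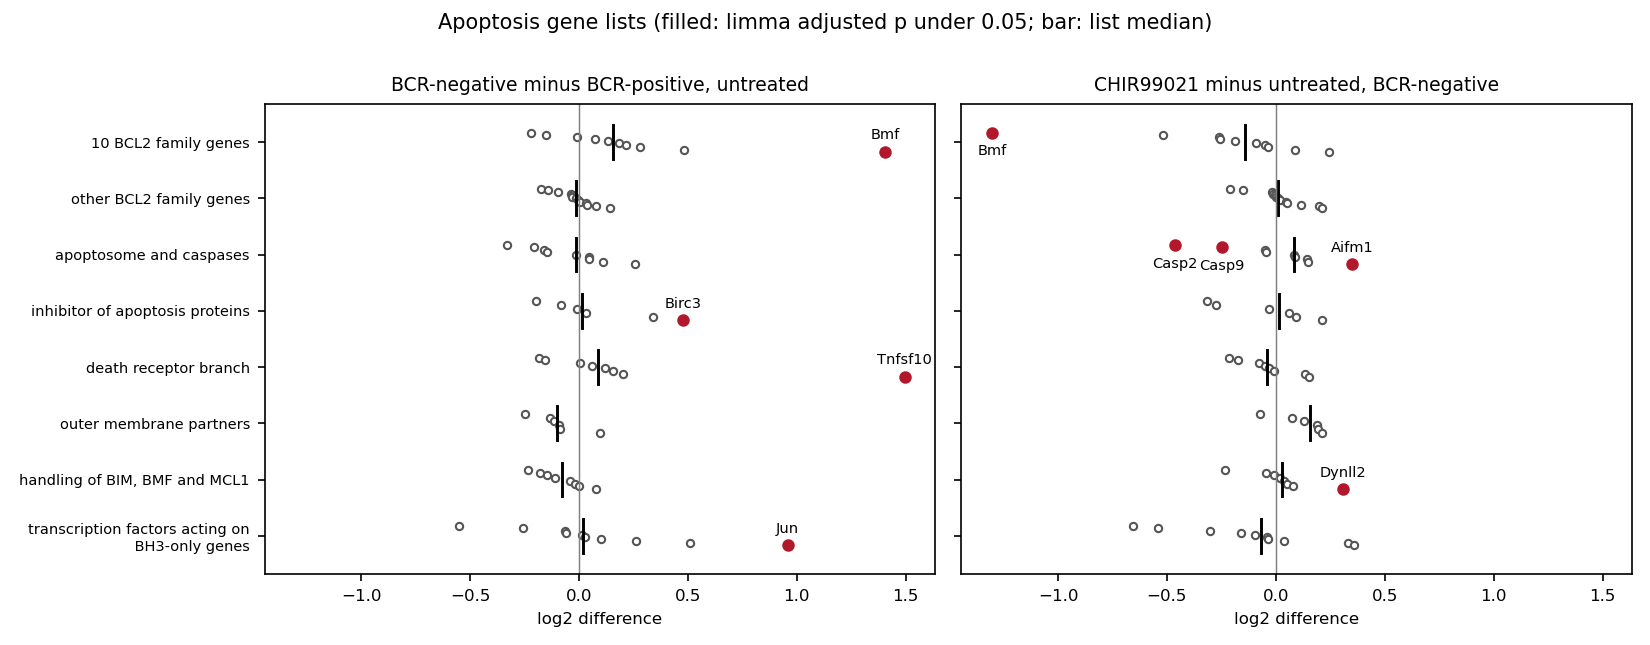
Log2 differences (x axis) of the 10 members and the 60 further genes by list, for BCR loss in untreated cultures and CHIR99021 in BCR-negative cells. Each point is the limma mean of 1 gene, the short black line is the median of the list, and called genes are filled and named: Bmf, Birc3, Tnfsf10 and Jun in the first panel, and Bmf, Dynll2, Aifm1, Casp2 and Casp9 in the second.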

How the data were processed

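Total RNA of sorted cells was hybridised to 12 arrays, 1 per lymphoma and group. The deposited values are log2 signals per probe set, which the authors made by RMA; the submitters' processing notes name Affymetrix Power Tools and no version. Of 35556 probe sets, 21218 had 1 gene symbol in the platform annotation, 1881 had several and 12457 were not listed. The probe set with the highest mean stood for each gene, which gave 18820 genes; Bcl2 and Bak1 have 2. Of these, 18790 matched RefSeq of GRCm38.p6 by Entrez identifier, the members included, and promoter windows are RefSeq's.

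limma 3.58.1 in R 4.3.3 fitted group and lymphoma over all 12 arrays (6 residual degrees of freedom), with eBayes and Benjamini-Hochberg adjustment over all genes. The lymphoma number pairs the arrays, since the design text has both populations of a lymphoma in co-culture; deviations of same-lymphoma arrays from group means correlated at 0.813 to 0.907. P-values rest on 1 residual spread per gene, pooled over all 12 arrays and moderated by eBayes. They do not measure the spread of a given difference over the 3 lymphomas, and the number of arrays limits precision. No arrays held identical values, and medians were 4.71 to 4.92. The fit was run on simulated data with shifts that were the same in every lymphoma. That run cannot show how the fit treats responses that differ between lymphomas. The members and gene lists were chosen with earlier results of these data known. All members were named, and list genes where called; Foxo1 and genes of marker lists are named beside them. Alternatives were other blocks, a dim filter, the mean of probe sets, other scalings, trend and robust eBayes, and leave-outs.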

Additional observations from a re-analysis of the deposited data

How the results depend on the processing

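The values were refitted under 23 alternatives, 15 of which left out a lymphoma or an array. Of 1370 member values 1253 kept their direction and side of the threshold, 12, all of Bmf, lost the call, and 105 uncalled values changed sign. The count of called members with BCR loss in untreated cultures and with CHIR99021 in BCR-negative cells was 1, and it was 0 without the replicate block and 0 with only the arrays compared; over the leave-outs it was 0 to 1 in both. Fits of only the arrays compared gave Bmf limma adjusted p of 0.0991 and 0.0533 at the same differences. The SE of Bmf in these fits was 0.263 and 0.144, against 0.215 in the fit of all arrays. Bmf was called in 17 of 23 alternatives in each comparison, with differences of 1.03 to 1.75 and -1.56 to -0.99. No other comparison gained a called member, and the replicate block changed no other call of a member. Over all genes, 791 and 692 genes were called in these comparisons, against 5 and 3 without the block, 75 and 81 with lymphoma as a random block, and 0 and 29 with only the arrays compared. Without lymphoma 2646 both counts were 0, without 2676 they were 22 and 175, and with array medians subtracted they were 1301 and 1089. The interaction could not be fitted with only the arrays compared, since it needs all 4 groups.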
